A study of Mus musculus with 2 samples.

Results

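The genes described here are 10 ligands, antagonists and receptors of the interleukin 1 family (Il1a, Il1b, Il18, Il33, Il1rn, Il18bp, Il1r1, Il1r2, Il1rap and Il1rl1), taken as a fixed list out of 19938 genes that the probe sets of the arrays name alone. Of the 10, 8 had a value and each of these rested on 1 probe set. Il1r1 and Il1rl1, the signalling receptors of interleukin 1 and of interleukin 33, had no probe set naming them in the annotation used and were not analysed here. RNA of B-Gal positive cells and of B-Gal negative cells from skin scar tissue, 1 week post wounding, was measured on Affymetrix Mouse Gene ST arrays. All cells came from TCF reporter mice, so both groups share the reporter genotype, and B-Gal is read here as beta-galactosidase, the reporter's product. The sources used here do not say how the cells were separated, how many mice were used or which promoter drives the reporter. The design text speaks of homogenised, microdissected wound tissue without saying how this relates to separated cells, and the group labels could not be compared with the reporter transcript because no probe set was named for it. There was 1 array per group, so no difference has an error, a test or a replicate check, and the small number of arrays sets the limit of precision. Below, positive and negative cells stand for these 2 groups.

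Cytokines of the interleukin 1 family are alarm signals of tissue damage and infection. Interleukin 1 alpha and beta bind the receptor encoded by Il1r1, which pairs with the accessory chain encoded by Il1rap and recruits the adaptor MyD88 to switch on NF-kappaB and MAP kinases. The family carries its own brakes, among them a receptor antagonist (Il1rn), a decoy receptor without a signalling domain (Il1r2) and a soluble protein that traps interleukin 18 (Il18bp). In skin wounds, interleukin 1 is known to come largely from neutrophils, macrophages and keratinocytes, while interleukin 33 is stored in the nuclei of stromal, endothelial and epithelial cells and released when they are damaged.

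Values are log2 expression values, and a difference is the positive array's value less the negative array's. A floor of 5.59, the 95th percentile of olfactory and vomeronasal receptor genes, separates expressed genes from the rest. All 8 measured genes of the family lay above it on both arrays, so each of their folds is a measured one. Levels of different genes come from different probes and are not set against each other.

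The ligands and antagonists of the interleukin 1 and interleukin 18 arms had higher values in positive cells, and interleukin 33 and both measured receptor chains had lower values. Il1a, Il18bp, Il1rn and Il18 were at least 2-fold higher, and Il33 and Il1r2 at least 2-fold lower. That is 4 of 8 on the higher side, where 9.92% of the 13784 expressed genes lay, and 2 of 8 on the lower side, where 12.7% lay. Il1b and Il1rap differed by less than 2-fold. The median difference of the 8 genes was 0.78, against 0.06 over all expressed genes, and the genes ran from -3.94 to 1.68.

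**Figure D1:**
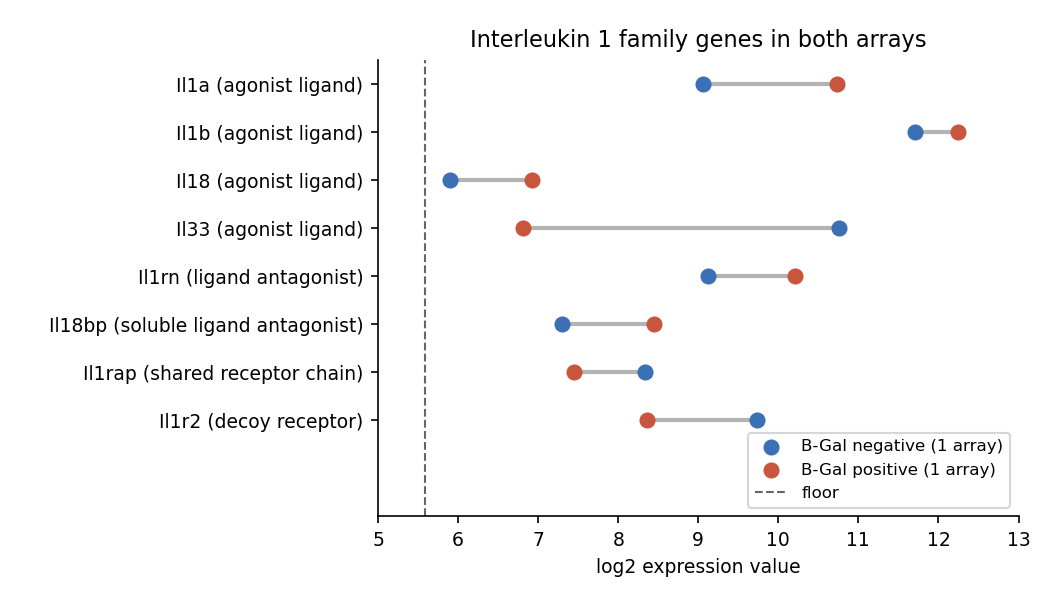
Log2 expression value (horizontal axis) of the 8 measured genes on the B-Gal negative array (blue) and the B-Gal positive array (red), with the role of each gene and a dashed line at the floor of 5.59. Il33 lies at 10.75 and 6.81, the widest gap, and the blue and red points of Il1b, at 11.71 and 12.24, lie closest together.

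Il1a encodes interleukin 1 alpha, which is active without cleavage and acts as an alarm signal of dying cells. Its log2 value was 9.06 in negative and 10.74 in positive cells. The positive array was thus the higher one, by 1.68 on the log2 scale or 3.19-fold, and 4.32% of expressed genes had a larger difference.

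Il1b encodes interleukin 1 beta, the secreted form that is made as an inactive precursor and cut by caspase-1. It had log2 values of 11.71 and 12.24 in negative and positive cells. Its difference of 0.53 (1.45-fold) was on the same side as that of Il1a but under 2-fold, and 20.6% of expressed genes had a larger one. The shift of Il1a exceeded that of Il1b by 1.14 on the log2 scale, or 2.21-fold.

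Il1a and Il1b are neighbouring protein-coding genes on chromosome 2, and their starts are shown because the pair shares position, strand and direction of difference. The windows run from 250 bases before to 50 after the start of the gene on the minus strand in RefSeq's table for GRCm38.p6, at chr2:129309923-129310222 for Il1a and chr2:129371090-129371389 for Il1b, written 5′ to 3′ along the gene. Capitals mark matches to 4 motifs, the TATA box core TATAAA on the gene's strand and, on either strand, GAGGAA (the core of PU.1 sites), TGANTCA (AP-1) and TTGCNNAA (C/EBP).
Il1a: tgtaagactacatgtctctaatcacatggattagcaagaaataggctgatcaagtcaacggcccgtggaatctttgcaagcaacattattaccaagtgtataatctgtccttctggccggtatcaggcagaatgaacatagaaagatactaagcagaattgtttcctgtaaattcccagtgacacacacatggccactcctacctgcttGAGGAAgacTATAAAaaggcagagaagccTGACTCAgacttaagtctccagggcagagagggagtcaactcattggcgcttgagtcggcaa
Il1b: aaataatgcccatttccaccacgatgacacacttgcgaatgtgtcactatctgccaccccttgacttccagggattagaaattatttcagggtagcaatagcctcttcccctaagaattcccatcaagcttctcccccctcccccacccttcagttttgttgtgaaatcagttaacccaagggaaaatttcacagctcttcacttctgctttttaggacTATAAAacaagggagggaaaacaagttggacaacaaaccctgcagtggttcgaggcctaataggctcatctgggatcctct
Both windows held TATAAA, beginning 32 bases before the start in Il1a and 31 before it in Il1b. Among the 32851 windows of this length in the table, 8.32% held TATAAA. The longest stretch that both windows share on the gene's strand is GACTATAAAA, 10 bases around that motif, beginning 35 bases before the start in Il1a and 34 in Il1b. Il1a also held GAGGAA (found in 28.3% of all windows) 41 bases and TGACTCA (7.81% for TGANTCA) 12 bases before its start, and these letters were not in the Il1b window. A match describes letters and is no evidence that a factor binds.

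Il18 encodes interleukin 18, a cytokine that drives interferon gamma production and is also cut by caspase-1. Its log2 values were 5.90 in negative and 6.92 in positive cells, the lower of them only 0.31 above the floor. The difference was 1.02, or 2.03-fold higher in positive cells, just past the threshold of 2-fold. With an offset of 32 on the linear scale it was 0.74, and after loess 0.93, both under 2-fold.

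The antagonists differed in the same direction. Il1rn, which blocks the interleukin 1 receptor without signalling, had log2 values of 9.12 and 10.21 in negative and positive cells and was 2.13-fold higher. After quantile normalization its difference was 0.996, just under 2-fold, against 1.09 on deposited values. Il18bp, which keeps interleukin 18 from its receptor, had log2 values of 7.30 and 8.45 and was 2.22-fold higher. Between 8.18% (Il18bp) and 9.66% (Il18) of expressed genes had a larger difference than these 3 genes.

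The differences of an antagonist and its ligand can be set side by side, since each compares 1 gene with itself. The difference of Il18bp exceeded that of Il18 by 0.13, a shift of 1.09-fold. That of Il1rn exceeded that of Il1b by 0.56 (1.47-fold). That of Il1rn less that of Il1a was -0.58. The decoy receptor Il1r2 went the other way from its ligand. The difference of Il1b exceeded that of Il1r2 by 1.91 (3.76-fold), with Il1r2 at -1.38. With no replicates, none of these shifts can be set against an error.

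Il33 encodes interleukin 33, a nuclear alarm cytokine. It had a log2 value of 10.75 in negative cells and 6.81 in positive cells, 1.22 above the floor. The difference of -3.94 (15.4-fold lower) was the largest of the 8 genes, and 0.631% of expressed genes had a lower one. All other measured ligands of the list had higher values in positive cells.

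Il33 has 2 start windows in the same table, on the plus strand at chr19:29924863-29925162 and chr19:29945540-29945839, shown because this gene differed most and the array does not tell its starts apart.
Il33 upstream start: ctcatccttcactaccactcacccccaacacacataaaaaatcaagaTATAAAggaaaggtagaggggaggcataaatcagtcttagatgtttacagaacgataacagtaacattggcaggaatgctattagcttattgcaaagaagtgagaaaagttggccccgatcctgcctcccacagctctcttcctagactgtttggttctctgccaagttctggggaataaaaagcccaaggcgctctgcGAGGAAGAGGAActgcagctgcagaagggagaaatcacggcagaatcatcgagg
Il33 downstream start: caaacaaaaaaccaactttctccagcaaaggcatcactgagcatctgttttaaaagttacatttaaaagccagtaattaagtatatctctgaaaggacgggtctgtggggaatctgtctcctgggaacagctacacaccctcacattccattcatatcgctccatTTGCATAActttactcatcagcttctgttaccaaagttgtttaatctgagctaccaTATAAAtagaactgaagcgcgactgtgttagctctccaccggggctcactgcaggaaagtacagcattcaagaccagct
The downstream window held TATAAA beginning 29 bases before its start and TTGCATAA, a match to the C/EBP motif (10.8% of all windows), 85 bases before it. The upstream window held TATAAA 203 bases before its start and GAGGAA in 2 adjacent copies across the start. Across the 8 measured genes, 6 of 11 windows held at least 1 of the 4 motifs, as did 45.4% of all windows.

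Of the receptor chains, Il1r2 encodes the decoy receptor that captures interleukin 1. Its log2 values were 9.74 in negative and 8.36 in positive cells (a difference of -1.38), and 9.05% of expressed genes had a lower difference. Il1rap, the accessory chain shared by the receptors of interleukins 1, 33 and 36, had log2 values of 8.34 and 7.45. Its difference of -0.89 (1.86-fold) was on the same side but under 2-fold. The probe sets do not separate the membrane and soluble forms of these receptors.

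**Figure D2:**
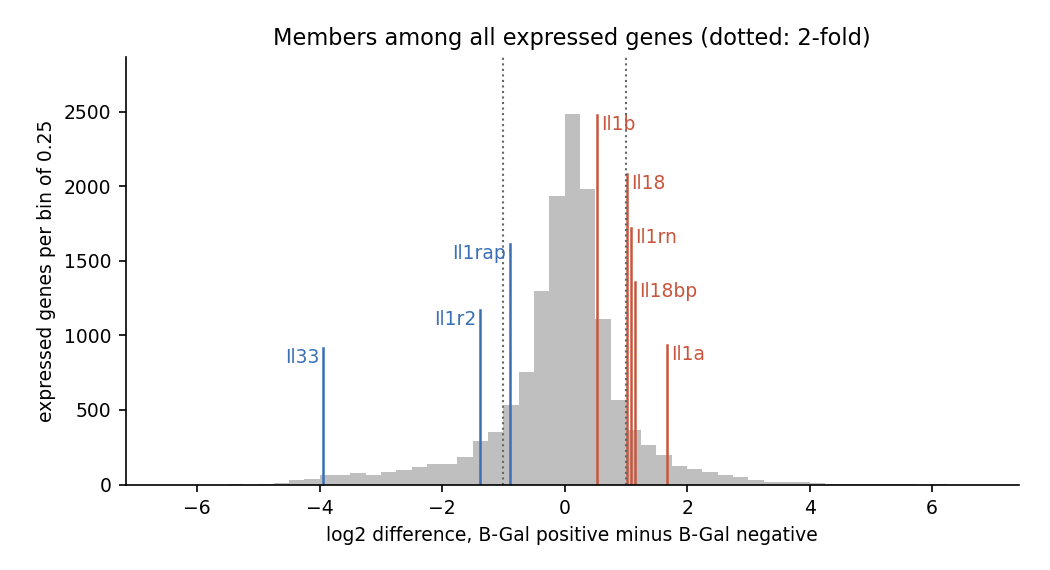
Histogram of the log2 difference (horizontal axis, positive minus negative array) of the 13784 expressed genes in bins of 0.25, with a vertical line for each of the 8 measured genes and dotted lines at 2-fold. Line heights carry no value. Il33 stands in the lower tail at -3.94, and Il18, Il1rn and Il18bp lie together just above 2-fold.

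The list of other family members, 11 genes, was measured in full. The interleukin 36 gamma gene and the receptor gene of interleukin 36 had lower values in positive cells. Of the 11, 5 were expressed and 6 (Il1f5, Il1f6, Il1f8, Il1f10, Il1rapl1 and Il1rapl2) lay at or under the floor on both arrays. Il1f9, which encodes interleukin 36 gamma, had log2 values of 9.39 in negative and 6.02 in positive cells and was 10.4-fold lower. Il1rl2, the receptor of interleukin 36, had 10.36 and 7.33 and was 8.20-fold lower. Il18rap, the accessory chain of the interleukin 18 receptor, had log2 values of 7.49 and 6.04 and was 2.72-fold lower. Il18r1, its binding chain, had 5.88 in negative cells and lay under the floor in positive cells, so it was at least 1.23-fold lower. Sigirr, an inhibitory receptor of the family, differed by 0.24 from 6.24 to 6.48.

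Il1r2, Il1r1, Il1rl2, Il1rl1, Il18r1 and Il18rap follow one another on chromosome 1 with no other protein-coding gene between them in RefSeq's order. Of these 6 receptor genes 4 were measured, and all 4 had lower values in positive cells, as did 45.5% of expressed genes. By contrast, Il1rn and the ligand gene Il1f9, which lie in another family cluster on chromosome 2, differed in opposite directions.

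**Figure D3:**
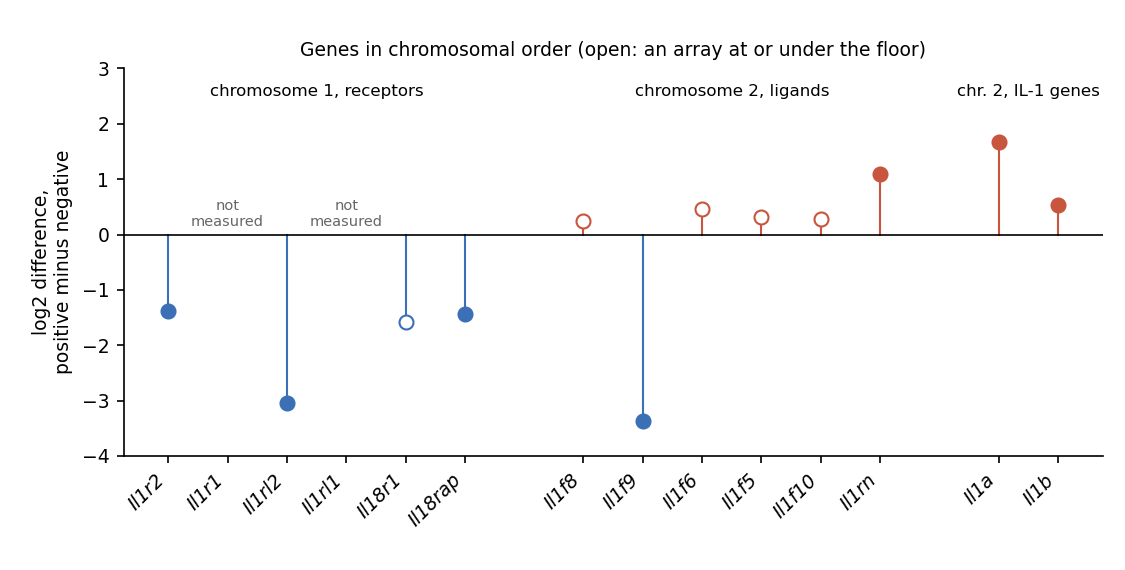
Log2 difference (vertical axis, positive minus negative array) of family genes in their order along chromosomes 1 and 2, with open circles for genes that did not clear the floor on both arrays. The 4 measured receptor genes of chromosome 1 lie between -3.04 and -1.38 (Il18r1 under the floor in positive cells), while Il1a, Il1b and Il1rn on chromosome 2 lie above 0.

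Genes for the maturation and release of these cytokines were mostly higher in positive cells. Of 19 expressed genes, 10 were at least 2-fold higher and 1 at least 2-fold lower, and the median difference was 1.06. For this list and those below, the shares over all expressed genes were 9.92% higher and 12.7% lower. Nlrc4, an inflammasome sensor, was at least 4.83-fold higher, Nlrp1b, another sensor, at least 6.49-fold, and Mefv, which encodes the sensor pyrin, 4.21-fold. Nlrp1b has close paralogs that a probe set may not tell apart. P2rx7, the ATP-gated channel that triggers release of interleukin 1 beta, was 5.64-fold higher. Casp1 and Nlrp3, named after their values were seen, were 3.78-fold and 2.85-fold higher; Casp1 encodes the protease that cuts the precursors of interleukins 1 beta and 18. The lower gene was Panx1, a channel for ATP release, also named afterwards, at -1.04.

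Signal transduction genes behind the receptors had a median nearer to 0 than that of the maturation genes. Of 22 expressed genes, 6 were at least 2-fold higher and 0 lower, and the median was 0.43. Pik3ap1, an adaptor for PI3 kinase, was 4.43-fold higher, Irak2, a kinase that binds MyD88, 3.25-fold, and Rel, an NF-kappaB subunit of leukocytes, 3.24-fold. Mapkapk2, the kinase under p38, was 2.14-fold higher. Myd88, named after its value was seen, differed by -0.03.

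Brakes inside the cell were also on the higher side, with a median of 0.65 over 18 expressed genes, 4 at least 2-fold higher and 1 lower. Nfkbie and Nfkbib, inhibitors of NF-kappaB, were 2.87-fold and 2.51-fold higher. Zc3h12a, an RNase that destroys cytokine messages, was 2.61-fold higher, and Dusp10, a MAP kinase phosphatase, differed by -1.06.

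Genes known to be induced by interleukin 1 lay mostly on the lower side in positive cells, where Il1a was higher. Of 25 expressed genes 13 were at least 2-fold lower and 2 higher, and the median was -1.05. Cxcl5, a chemokine that attracts neutrophils, differed by -4.39, and the stromelysin gene Mmp3 by -3.96. Has2, a hyaluronan synthase, was 14.3-fold lower and Saa3, a serum amyloid A gene, 7.88-fold lower. The higher ones, named afterwards, were the urokinase gene Plau (2.39-fold) and Tnf (2.86-fold), and Il6, also named afterwards, was 3.74-fold lower. Several of the lower genes are known products of fibroblasts, and the part of fibroblasts in these differences was not tested.

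Type 2 response genes that can follow interleukin 33 had a median of 1.67 over 11 expressed genes. Of these, 6 were higher by 2-fold or more (5 against the floor) and 1 was lower. The higher ones included genes that macrophages are known to express, Mrc1 (a mannose receptor that is also in the macrophage list), Retnla (at least 8.24-fold) and Arg1 (arginase 1, 6.10-fold) among them. Il4, Il5 and Il9, type 2 cytokines of lymphocytes and mast cells, lay under the floor on both arrays. Il13, another of these, lay above it on both, with log2 values of 5.98 in negative and 5.82 in positive cells (all 4 named afterwards). Ccl11, the eosinophil chemokine eotaxin, was 5.47-fold lower.

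**Figure D4:**
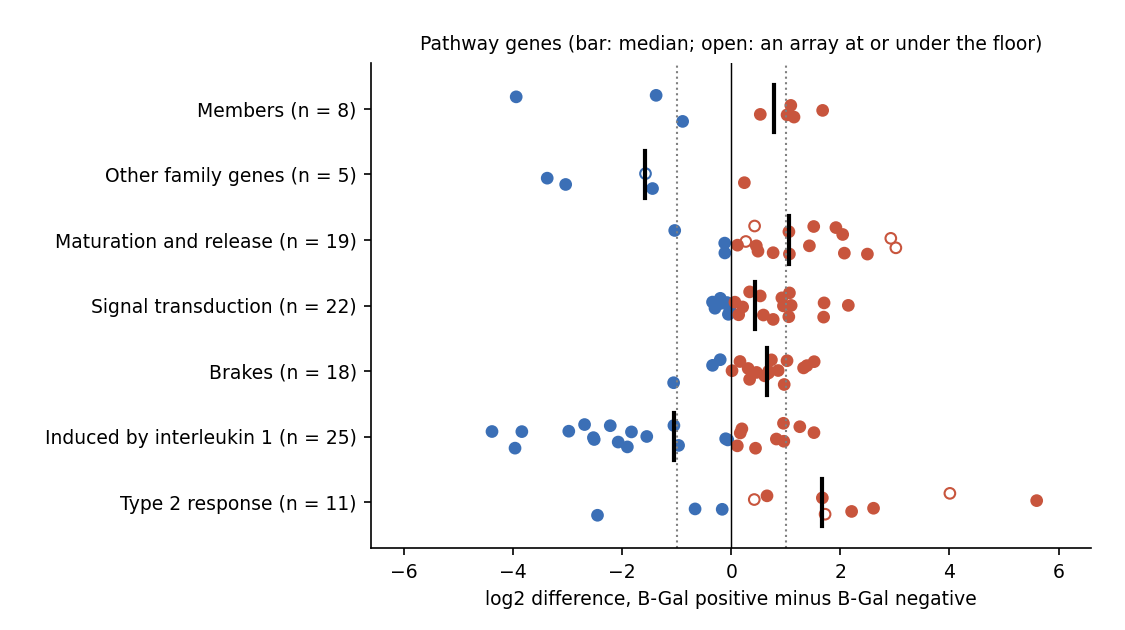
Log2 difference (horizontal axis, positive minus negative array) of every expressed gene in the family and pathway lists, with a black bar at each list's median, dotted lines at 2-fold and open circles for genes that did not clear the floor on both arrays. The medians of the maturation list (1.06) and of the genes induced by interleukin 1 (-1.05) lie on opposite sides of 0.

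Cell type markers also differed between the arrays, and in such samples fewer cells of a type and less RNA per cell cannot be told apart. All 17 macrophage markers were at least 2-fold higher in positive cells, and their summed level (log2 of the sum of linear values) went from 12.5 to 15.9. The marker lists were chosen with earlier results of these data known, so such counts describe the arrays and are no independent check. Cd163 and Ms4a7 (the latter named afterwards) were under the floor in negative cells, while Adgre1 differed by 4.75 and Cd68 by 3.29. Every one of the 17 differed by more than Il1a, Il1b, Il1rn, Il18 and Il18bp did, the smallest being Cd14 at 2.09 (named afterwards).

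Of 15 fibroblast markers 14 were at least 2-fold lower, and their summed level went from 16.4 to 13.9, with none under the floor on either array. Pdgfra differed by -4.32 and Col1a1 by -1.96, and 6 of the 15 differed by more than Il33 in the lower direction. Endothelial cells also store interleukin 33, and 9 of 12 of their markers were at least 2-fold lower (their sums were 11.7 and 10.1). Pecam1 differed by -1.72, Cdh5 by -2.06, Kdr by -1.56 and Tek by -2.75. Most keratinocyte markers were near or under the floor. Of 14, 9 were expressed and 2 at least 2-fold lower, and the list summed to 9.69 and 9.33. The 2 lower ones, Krt5 and Krt14, stood clearer of the floor in negative cells, with log2 values of 7.11 and 7.06. Krt5 was at least 2.88-fold lower, and Krt6a, a wound keratin, was under the floor on both arrays.

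Neutrophils are known to carry Il1r2 and to make Il1b. Of 12 measured neutrophil markers 9 were expressed, 4 were at least 2-fold lower and 2 higher on deposited values (0 against the floor), and the list summed to 10.87 in negative and 10.03 in positive cells. Their median was 0.49, with 5 of the 9 higher and 4 lower in value. The sign of this median depended on how low values were left out. With the floor raised to the 99th percentile of the receptor genes it was -1.79. The median over all genes as the cut gave -1.79 too, and no cut gave 0.09. Centring, loess, quantile normalization and the offset kept it between 0.41 and 0.51. The median thus gives no firm direction for these markers. S100a8 differed by -2.71, S100a9 by -3.41, Cxcr2 was at least 4.71-fold lower, and Ly6g, a defining marker, was under the floor on both arrays. The 5 higher ones were named afterwards. Csf3r differed by 0.49 and Cd177 by 0.62. Mmp8, Padi4 and Camp were under the floor in negative cells and at least 1.56-, 1.96- and 1.60-fold higher in positive cells. Among mast cell genes, 9 of 11 expressed markers differed by 2-fold or more on the lower side (8 against the floor), and the list summed to 11.8 and 9.94, with Cpa3 and Mcpt4 under the floor in positive cells. On deposited values these 2 genes, at -5.39 and -4.83, differed by more than Il33 in the lower direction. T, NK and innate lymphoid cells can bear the interleukin 18 receptor. Of their 15 expressed markers 7 were at least 2-fold lower (4 against the floor) and 2 higher, and the list summed to 11.6 and 10.5. Among the lower ones was Thy1, named afterwards, which is also in the fibroblast list. Its log2 values were 10.47 and 6.77, the first being the highest of the list in negative cells, so it weighs heavily in the sum. Cd3e differed by -0.77, Cd3g was at least 3.42-fold lower and Cd3d was under the floor on both arrays. The higher ones were Cd4 at 1.56 and Il7r, named afterwards, at 2.04. Dendritic cell markers had 1 of 8 at least 2-fold higher and 1 lower (0 lower against the floor), summing to 10.1 and 10.7. Their median was -0.19, with 3 of the 8 higher and 5 lower in value. The gene at least 2-fold higher was Itgax, with log2 values of 7.12 and 9.36. The second is the highest of the list in positive cells, so Itgax weighs heavily in the higher sum. Of the 3 expressed basophil markers 1 was at least 2-fold lower (sums of 8.38 and 7.49, with Mcpt8 under the floor on both arrays). These sums take in all 6 measured genes, 3 of them under the floor in negative and 5 in positive cells, so they are in part background. The lower one, Fcer1a, is also in the mast cell list. The part of these cell types in the differences of the interleukin 1 family was not tested.

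**Figure D5:**
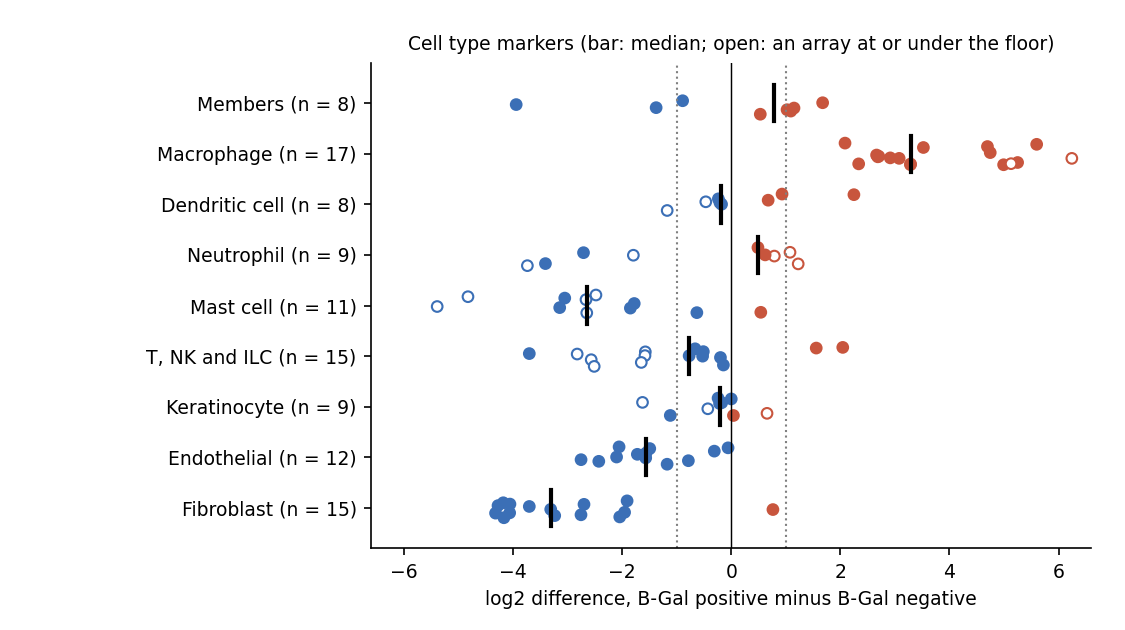
Log2 difference (horizontal axis, positive minus negative array) of the 8 measured genes of the family and of expressed cell type markers, with black bars at list medians, dotted lines at 2-fold and open circles for genes that did not clear the floor on both arrays. The macrophage markers run from 2.09 to 6.24, beyond every gene of the family. Il33 at -3.94 lies within the ranges of the fibroblast and of the mast cell markers.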

How the data were processed

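Total RNA of 2 samples, 1 array per group, was measured on Affymetrix Mouse Gene ST arrays, per the labels and the series' design text. The deposited values were used as log2 expression values of 28853 probe sets. They ran from 1.16 to 14.8, from which the log2 scale was inferred, and folds depend on that. The submitters' processing notes name Partek. The sources used here do not state the summarization, background correction, normalization or log base. Array medians were 6.18 (B-Gal negative) and 6.16 (B-Gal positive), and no scaling was added.

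Probe sets paired with 1 gene (21789) by the platform annotation were kept, and 1621 with several genes and 5443 with none listed were left out. Symbols followed RefSeq's GRCm38.p6 table by gene ID (21698 matched). For genes with several probe sets the one with the highest mean was used. The floor came from 1194 olfactory and vomeronasal receptor genes, 2.68% of which differed at least 2-fold. Their differences had a median of 0.28. A fold with 1 array at or under the floor was computed against the floor and given as at least that size. Counts and medians used deposited values. For lists they took in expressed genes only, while list sums took in every measured gene, also those under the floor. Sums of lists with many genes near the floor are therefore in part background.

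The genes, lists and motifs were chosen with earlier results of these data known. Named genes were all members, all other family genes and up to 4 per pathway list by absolute difference. Marker genes were taken from the first 4 of a marker list, and not all of these were named. Others are said to be named afterwards. Of 263 list entries 251 were measured. Promoter windows of all 10 genes (15 windows) came from RefSeq. Alternatives were centring, loess (span 0.4, 3 iterations), quantile normalization, an offset of 32, raising values to the floor, other filters, the mean over probe sets and other thresholds. The 2-fold threshold alone was tried on simulated differences. Python 3.11.15 with pandas 2.3.3 and statsmodels 0.14.6 was used.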

Additional observations from a re-analysis of the deposited data

How the results depend on the processing

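The direction of each of the 8 genes was kept under centring, which adds the same amount to every difference, and under loess and quantile normalization. The offset, equal on both arrays, could change the size of a difference but not its direction. Raising to the floor and the mean over probe sets could not change these values. Each of the 8 genes had 1 probe set and lay above the floor on both arrays. Il33 ran from -4.02 to -3.61, Il1r2 from -1.45 to -1.30, Il1rap from -0.95 to -0.78, Il1a from 1.62 to 1.70, Il1b from 0.49 to 0.57, Il18bp from 1.01 to 1.18, Il1rn from 0.996 to 1.12 and Il18 from 0.74 to 1.05. The count at least 2-fold higher was 3 in place of 4 under loess and the offset (Il18 lost) and under quantile normalization (Il1rn lost). The shares of all expressed genes were then 9.09% under loess, 8.18% with the offset and 9.86% after quantile normalization. At a threshold of 4-fold, 0 genes were higher and 1, Il33, was lower, as fewer genes pass a stricter threshold. Of all expressed genes 3.01% were higher and 5.72% lower at that threshold. At 1.5-fold, 4 were higher and 3 lower, against 18.8% and 20.1% of all expressed genes. The median of the 8 genes ran from 0.63 to 0.80. Loess moved the median of all expressed genes from 0.06 to -0.04. The filters on low values changed none of the counts of the 8 genes. Among the values of the other lists, 34 of 432 moved. A count moved if it changed by more than 1.5-fold or to or from 0. A median moved if it changed by at least 0.37, the standard deviation of the receptor genes' differences. Smaller changes of sign were not counted. For the interferon gamma genes, the median went from -0.12 to 0.04 without a filter. No paired analysis was possible because each group has 1 array and no result comes from a test. Leaving out a replicate was not possible for the same reason. Signal over background limits Il18 most, at 0.31 above the floor in B-Gal negative cells.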

Other observations

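Interferon gamma and genes known to follow it, which lie downstream of interleukin 18, did not shift one way. Of 14 measured genes 12 were expressed, 1 at least 2-fold higher and 3 lower (2 against the floor), with a median of -0.12. Ifng lay under the floor in B-Gal positive cells and was at least 1.39-fold lower there, where Il18 was 2.03-fold higher. Gzmb, a cytotoxic granule protease, was at least 2.18-fold lower and Iigp1, an immunity-related GTPase, 3.35-fold lower. Cxcl10, a chemokine for T cells, was 2.76-fold higher.

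Both arrays held exactly the same value for 614 of the 28853 probe sets (2.13%), among them those of Il1rapl1 and Il1rapl2. None of the 8 measured genes of the list was among them.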
